A study of Mus musculus with 24 samples.

Results

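A set of 10 genes of the heat shock chaperone system were followed across 24 RNA sequencing libraries of mouse nucleus accumbens, the ventral striatal region that takes part in reward and motivation. They were the HSP70 genes Hspa1a, Hspa1b, Hspa8 and Hspa5, the HSP70 relative Hsph1, the HSP90 genes Hsp90aa1 and Hsp90ab1, the mitochondrial chaperonin Hspd1 and the cochaperones Dnajb1 and Bag2. The genes were chosen by symbol, as inducible and constitutive chaperones and cochaperones, with earlier results of these data known. All 10 were found among the 37991 Ensembl genes of the deposited count table. There were 8 groups of 3 libraries, and mRNA of 4 mice was pooled for each library. In the wild-type experiment, C57BL/6J mice of genotype WT that received no virus were either controls or stressed, separately for females and males. In the floxed experiment, all mice were Dnmt3a2lox/2lox on C57BL/6J, all were stressed, and they received either AAV-GFP or AAV-CRE, again separately for each sex. AAV-CRE is an adeno-associated virus that carries Cre recombinase, which deletes loxP-flanked DNA, here in the DNA methyltransferase gene Dnmt3a, and the sources used here name neither its promoter nor the share of cells it reached. The labels state neither the animals' age nor how long the stress lasted, and the tissue protocol names dorsal striatum beside nucleus accumbens.

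Heat shock proteins bind unfolded stretches of other proteins, keep them from aggregating and help them to fold, and brain cells use them all the time and not only under stress. In the cytosol a J-domain protein such as Dnajb1 hands a client to HSP70 and triggers the hydrolysis of ATP, and exchange factors such as Hsph1 and Bag2 then release it, in part towards HSP90, which finishes signalling proteins such as the glucocorticoid receptor. When unfolded proteins build up, heat shock factor 1 is freed, binds repeats of the unit GAA in promoters and switches on the inducible members. The endoplasmic reticulum and the mitochondria hold their own chaperones, Hspa5 and Hspd1, each with its own stress pathway.

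Hspa1a and Hspa1b, the stress-inducible cytosolic HSP70 genes, gave the clearest difference among the 10 genes, so their promoters are shown. Both genes lie on the minus strand of chromosome 17, next to each other. The 250 bases before each start site are given 5′ to 3′ from RefSeq (build GRCm38.p6), at chr17:34972157-34972406 for Hspa1a and chr17:34959239-34959488 for Hspa1b. Capitals mark the match to GAANNTTC, a pair of facing heat shock units.
Hspa1a: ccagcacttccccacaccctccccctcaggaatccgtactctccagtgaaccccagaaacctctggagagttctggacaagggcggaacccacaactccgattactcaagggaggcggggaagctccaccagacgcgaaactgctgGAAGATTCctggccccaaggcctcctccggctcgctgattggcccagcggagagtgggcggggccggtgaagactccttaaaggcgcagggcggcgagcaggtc
Hspa1b: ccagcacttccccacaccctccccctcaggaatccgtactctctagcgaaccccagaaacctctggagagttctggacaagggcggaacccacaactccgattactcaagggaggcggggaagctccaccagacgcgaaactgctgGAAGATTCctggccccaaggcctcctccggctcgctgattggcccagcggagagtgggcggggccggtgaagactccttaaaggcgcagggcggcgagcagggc
The promoters differ at 3 positions, counted from 1 at the 5′ end of each window, with the base of Hspa1a first: C44T, T47C and T249G. The match in both is GAAGATTC and begins 104 bases before the start site.

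The RefSeq table held promoter windows, from 250 bases before to 50 after a start site, for 7 of the 10 genes, all but Hspa8, Hsp90aa1 and Hsp90ab1. Each motif was searched on both strands of every window. GAANNTTC was in 7.86% of the 32851 windows of all genes, and this motif or its other form TTCNNGAA was in 15.1%. GAANNTTCNNGAA, with 3 units, was in 0.603% of all windows. It was found in the windows of Hsph1 (TTCTGGAAAGTTC, read on the gene's strand). There it began 36 bases after the first start site and 15 bases after the second. It was also found, as a pair of overlapping matches (TTCCGGAAGGTTC and GAAGGTTCTAGAA), in the window at the second start site of Hspd1. The Hspd1 stretch is also in the window of Hspe1, its cochaperonin, which is transcribed in the opposite direction. Hspa5 held the endoplasmic reticulum stress element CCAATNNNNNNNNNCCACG as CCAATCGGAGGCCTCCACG, beginning 65 bases before its start site. This element was in 0.119% of all windows. The windows of Dnajb1 and Bag2 held none of the motifs. A match is a description of these letters and was not tested as a binding site.

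Reads of several of these genes cannot be placed with certainty. Of the 50-base stretches in Hspa1a transcripts, 66.3% also occur in another gene, mostly in Hspa1b, and 62.3% of those of Hspa1b occur elsewhere. The share was 47.5% for Hsp90aa1, 42.1% for Hspd1 and 39.4% for Hspa8, in each case mostly with 1 processed copy or gene model (Gm12346, Hspd1-ps3 and Gm15459). It was 3.44% for Hsp90ab1, 2.72% for Bag2, 0.412% for Dnajb1 and 0 for Hspa5 and Hsph1. The labels do not state how reads with several places were treated, so the levels of Hspa1a, Hspa1b, Hsp90aa1, Hspd1 and Hspa8 are uncertain, and Hspa1a and Hspa1b were also analysed as a sum. Exons of Hspa1a overlap those of Gm20481 on the opposite strand over 19% of their length, and whether reads were counted by strand is not given either.

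Total counts per library ran from 7116123 to 12145551 in the wild-type experiment and from 28132563 to 59829070 in the floxed experiment. Genotype, virus and depth differed between the experiments together, so they were fitted apart and no change was computed between them. All 10 markers of medium spiny neurons, the main neurons of the labelled tissue, were detected in every library. Dnmt3a was at 137 to 143 CPM (counts per 1000000 counts of the library, scaled with TMM factors) in Cre males against 164 to 182 CPM in GFP males, and at 139.8 to 155.2 CPM in Cre females against 154.5 to 168.9 CPM in GFP females. The 3 Cre male libraries stood apart in markers of cortical excitatory neurons, and the wild-type libraries numbered 1 stood apart in many genes, as described below beside the results they touch. Nothing in the labels says what the library numbers stand for. In such bulk tissue, fewer cells of a type and less RNA per cell cannot be told apart.

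Levels were compared between genes as CPM per kilobase of exon. Hsp90ab1, the constitutive HSP90 of the cytosol, was the highest of the 10 in every library, at 575.5 ± 76.3 CPM per kb (SD over 12 libraries) in wild-type and 446.8 ± 11.8 CPM per kb in floxed mice. It ranked 22nd of 14666 tested genes with a length for wild-type mice and 26th of 16760 for floxed mice. Hspa8, the constitutive HSP70 that also uncoats clathrin vesicles, followed with 104.5 ± 21.3 and 145.5 ± 16.6 CPM per kb. Hsp90aa1, the more inducible HSP90, had 82.9 ± 19.7 and 138.9 ± 11.9 CPM per kb. Hspa8 and Hsp90aa1 did not separate, since Hspa8 was the higher of the pair in 6 of 12 wild-type and 8 of 12 floxed libraries.

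Hspa5, the HSP70 of the endoplasmic reticulum (also called BiP), came next, at 63.0 ± 13.1 CPM per kb in wild-type and 55.7 ± 2.53 in floxed libraries, where it was above Hspd1 in 9 of 12. Hsph1, the HSP110 exchange factor of HSP70, was at 60.8 ± 6.14 and 48.1 ± 3.15 CPM per kb, and in the wild-type libraries it could not be ordered against Hspa5, which was higher in 6 of 12. Hspd1, the HSP60 chaperonin of the mitochondrial matrix, was at 30.4 ± 4.22 and 54.1 ± 1.85 CPM per kb. Its place therefore differed between the experiments, below Hsph1 in all 12 wild-type and above it in 11 of 12 floxed libraries. Dnajb1, the HSP40 that activates HSP70, was at 13.1 ± 1.503 and 11.6 ± 0.827 CPM per kb. Bag2, an exchange factor that also holds back the ubiquitin ligase Stub1, was at 1.39 ± 0.285 and 1.46 ± 0.309 CPM per kb. Dnajb1 was above Bag2, and Bag2 above both inducible HSP70 genes, in all 24 libraries.

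The inducible HSP70 genes were near the bottom of the tested genes, with Hspa1a 14176th of 14666 in wild-type mice. Hspa1a was at 0.292 ± 0.0968 CPM per kb in wild-type and 0.266 ± 0.166 in floxed libraries, and Hspa1b at 0.267 ± 0.190 and 0.404 ± 0.402. In the wild-type libraries these levels were 3 to 11 counts of Hspa1a and 3 to 21 counts of Hspa1b per library. Hspa1b did not pass the filter on low counts there, so 9 of the 10 genes were tested there, and 10 of 10 in the floxed experiment. The inducible pair also had the widest spread in the floxed experiment, where the highest library was 13.4 times the lowest for Hspa1b and 8.42 times for Hspa1a. For Hsp90ab1 and Hspd1 the same ratio was 1.10, the narrowest of the 10.

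**Figure D1:**
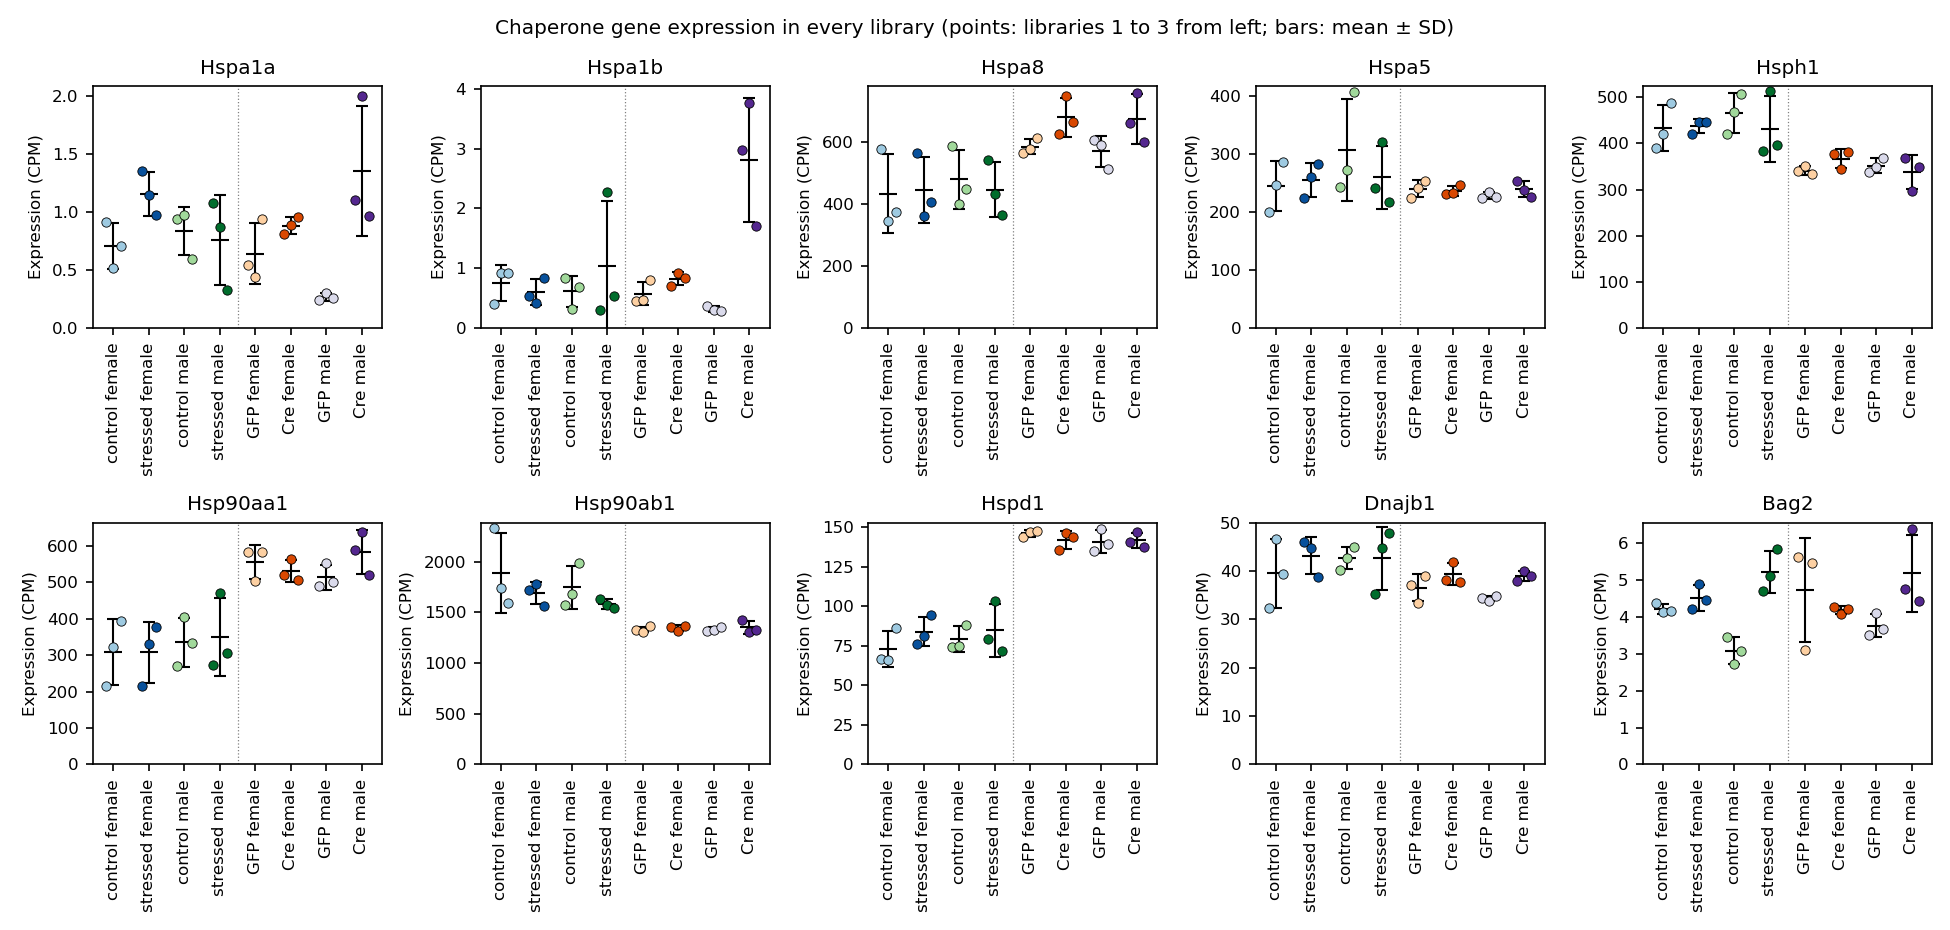
Expression in CPM (vertical axes, from 0) of each of the 10 chaperone genes in every library; points are libraries 1 to 3 of each group, lines are mean ± SD, and the dotted line separates the wild-type from the floxed experiment. Hspa1a and Hspa1b are highest in the Cre males and lowest in the GFP males of the floxed experiment, while Hsp90ab1 and Hspd1 differ at most 1.10 times between floxed libraries.

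The floxed experiment asks what Cre in mice with a loxP-flanked Dnmt3a does to stressed animals of each sex. In males, Hspa1b and Hspa1a rose and no other chaperone passed the test. Hspa1b was at 2.98, 3.76 and 1.70 CPM in the 3 Cre males (113, 229 and 58 counts) and at 0.374, 0.303 and 0.280 CPM in the 3 GFP males (11, 9 and 11 counts). The groups were far apart, with the lowest Cre male well above the highest GFP male. The log2 fold change of Hspa1b was 3.15 (SE 0.33), an 8.85-fold difference, with an adjusted p of 0.002363 in edgeR's quasi-likelihood test with Benjamini-Hochberg adjustment over all 17597 genes, and it had the fifth smallest p of all. Hspa1a was at 1.11, 2.00 and 0.967 CPM in Cre males and at 0.238, 0.303 and 0.255 CPM in GFP males. These groups did not overlap either, and the log2 fold change was 2.37 (SE 0.36), 5.15-fold, with an adjusted p of 0.008133 by edgeR.

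So 2 of the 10 chaperones were called higher in Cre males and 0 lower, where 3.68% of all tested genes were called higher and 4.96% in either direction. That share rested on single libraries: of the 872 genes called, 647 of them higher, the count went to 93 (79 higher) without GFP male 2, 165 without GFP male 3, 246 without GFP male 1, 318 without Cre male 1, 341 without Cre male 2 and 1303 (970 higher) without Cre male 3. Hspa1a and Hspa1b share much of their sequence, so their 2 calls are not independent. The genes were also chosen with earlier results of these data known, so setting 2 of 10 beside all genes tests no enrichment. The sum of Hspa1a and Hspa1b, which does not depend on how shared reads were split between them, was 4.17 ± 1.55 CPM in Cre males against 0.584 ± 0.0425 CPM in GFP males (SD, n = 3). Its log2 fold change was 2.84 (SE 0.32), 7.17-fold, with an edgeR adjusted p of 0.002723. Hspa1b made up 63.7% to 72.9% of the summed counts in Cre males, and 45.7% to 61.1% in the other 9 floxed libraries. The wild-type libraries, scaled separately and not tested against these, were at 0.864 to 3.15 CPM, from 8 to 29 summed counts.

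Dnajb1 was at 37.9, 40.1 and 38.9 CPM in Cre males and 34.4, 33.9 and 34.8 CPM in GFP males. The groups did not overlap, but its log2 fold change of 0.18 (SE 0.06) was not called (edgeR adjusted p = 0.1043). Bag2 was at 4.74, 6.37 and 4.43 CPM in Cre males and 3.501, 4.11 and 3.67 CPM in GFP males. It too was higher in 3 of 3 libraries without overlap, with a log2 fold change of 0.47 (SE 0.21) that was not called (edgeR adjusted p = 0.1893) and was 0.28 without Cre male 2. In all, 4 of 10 chaperones were higher in Cre males without overlap between the groups, where 14.7% of all genes were. The 4 include Hspa1a and Hspa1b, which share sequence, so they are not independent. Hspa8 overlapped, at 661, 756 and 598 CPM against 606, 588 and 512 CPM, with a log2 fold change of 0.24 (SE 0.10, edgeR adjusted p = 0.1532) that was 0.14 without Cre male 2. The other 5 genes, Hspa5, Hsph1, Hsp90aa1, Hsp90ab1 and Hspd1, had log2 fold changes from -0.06 to 0.18 and overlapping groups. The median log2 fold change was 0.18 over the 10 chaperones and 0.0046 over all genes tested.

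Markers of other tissue moved with the Cre males. The summed level of 10 cortical excitatory neuron markers was 735, 772 and 389 CPM in Cre males, against 166 to 206 CPM in GFP males, 188 to 221 CPM in Cre females and 189 to 219 CPM in GFP females. Of these 10 markers 7 were called higher in Cre males, with a list median log2 fold change of 4.44. Slc17a7, which loads glutamate into vesicles, was at 428, 408 and 168 CPM in Cre males and at 1.29 to 15.3 CPM in GFP males. Choroid plexus and ependyma markers summed to 197, 2145 and 101 CPM in Cre males against 71.3 to 95.6 CPM in GFP males. Medium spiny neuron markers summed to 5049, 2664 and 5441 CPM in Cre males against 5409.9 to 5840.6 CPM in GFP males. Cre male 2 was the highest library for Hspa1a, Hspa1b and Bag2 and for both marker sums, and the lowest for the medium spiny sum.

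The calls were lost with the cortical score as a covariate in the same model. Hspa1b then had a log2 fold change of 2.41 (SE 0.83) and Hspa1a of 1.62 (SE 0.87), both with an edgeR adjusted p of 1, and Bag2 turned to -0.16. That model called 0 of all 17597 genes in Cre males, where the model without the score called 872. With the score of choroid plexus markers as a covariate instead, Hspa1b was still called, while Hspa1a was not (log2 fold change 1.71, edgeR adjusted p = 0.07033). That second model called 41 of all 17597 genes in Cre males. The 3 Cre males were also the 3 libraries with the highest cortical marker sums, so the tissue makeup of the punches and an effect of Cre cannot be told apart here. Leaving out any 1 of the 12 libraries kept both genes called, also without Cre male 2.

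**Figure D2:**
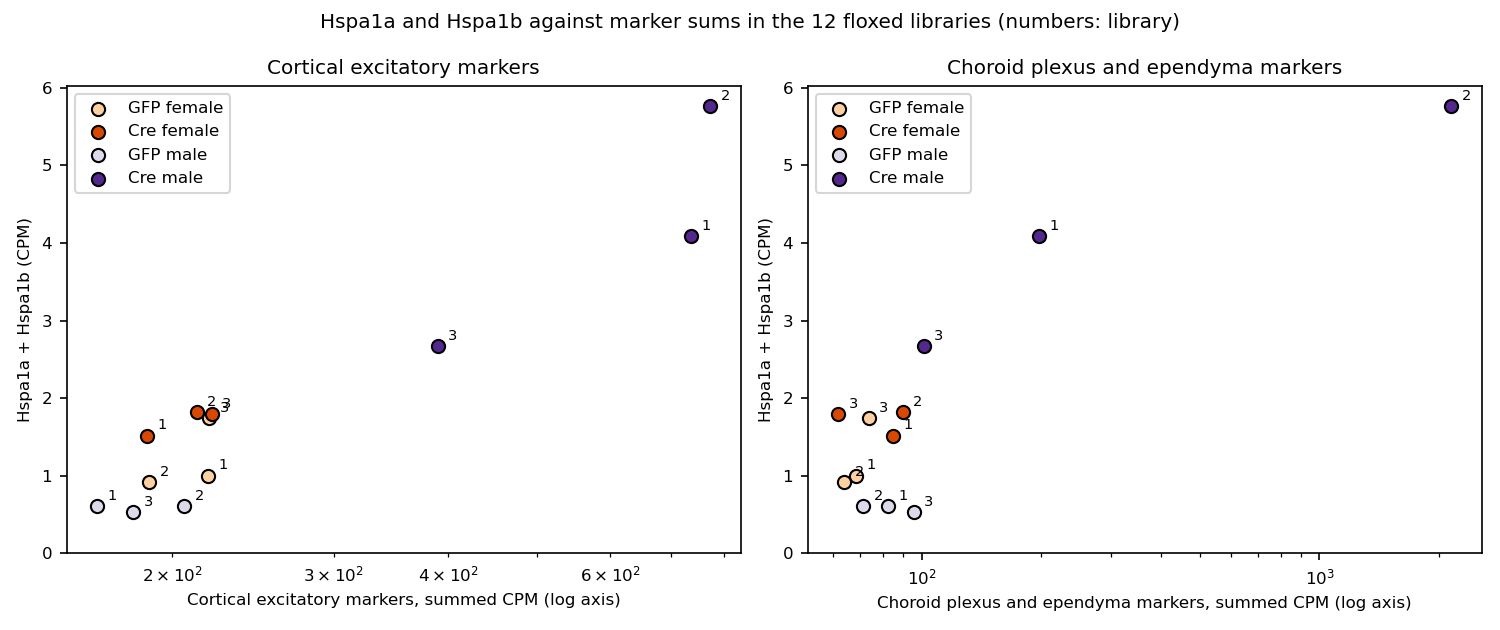
Summed expression of Hspa1a and Hspa1b in CPM (vertical axes) against the summed CPM of cortical excitatory markers (left) and of choroid plexus and ependyma markers (right), both horizontal axes logarithmic; points are the 12 floxed libraries, numbered within their group. The 3 Cre males lie apart from the other 9 libraries, at 2.67 to 5.76 CPM of the gene pair and 389 to 772 CPM of cortical markers.

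In females, Cre called 0 of the 10 chaperones in edgeR, and 0% of all 17597 genes. Hspa8 was at 624.5, 747.1 and 662.9 CPM in Cre females and 564.1, 576.2 and 611.8 CPM in GFP females. The groups did not overlap, as for 1 of the 10 chaperones and 6.5% of all genes, and the log2 fold change of 0.22 (SE 0.10) was not called (edgeR adjusted p = 0.8255) and was 0.14 without Cre female 2. At an unadjusted p below 0.05, Hspa8 was the only 1 of the 10, against 5.96% of all genes, and DESeq2 called 33 genes, none of them a chaperone of the 10. Dnajb1 had the next smallest p, with a log2 fold change of 0.10 (SE 0.06, edgeR adjusted p = 0.8692) and overlapping groups, at 37.8 to 41.9 CPM against 33.4 to 39.0 CPM, and it was 0.05 without Cre female 2 or GFP female 2.

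Hspa1a in females was at 0.809, 0.891 and 0.955 CPM with Cre and 0.543, 0.443 and 0.943 CPM with GFP. Hspa1b was at 0.708, 0.926 and 0.836 CPM with Cre and 0.458, 0.472 and 0.796 CPM with GFP. For both genes 1 GFP female, number 3, reached into the range of the Cre females. The summed pair was at 1.71 ± 0.166 CPM with Cre and 1.22 ± 0.453 CPM with GFP (SD, n = 3), a log2 fold change of 0.49 (SE 0.30) that was not called (edgeR adjusted p = 0.8715). GFP males were thus below all other floxed groups for the pair, and Cre males above them.

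Tested directly, the female minus male difference of the Cre effect was not called for any of the 10 genes in edgeR, where 0.0114% of all genes were called. For Hspa1b it was -2.64 (SE 0.47, edgeR adjusted p = 0.07362), for Hspa1a -1.91 (SE 0.50, edgeR adjusted p = 0.1161) and for Bag2 -0.64 (SE 0.29, edgeR adjusted p = 0.2849). The Hspa1b difference passed with DESeq2 (adjusted p = 8.538e-04), with no filter on low counts, without Cre male 3 and without GFP female 2. Calls over all genes rose in these settings too, to 613, 43, 500 and 144 in that order, against 2 in the main fit. The Hspa1a difference passed in 1 case, without Cre male 3 (edgeR adjusted p = 0.04553). With the cortical score as a covariate the Bag2 difference was 0.02.

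Averaged over the sexes, Cre called Hspa1b (log2 fold change 1.83, SE 0.23, edgeR adjusted p = 0.007162) and Hspa1a (1.41, SE 0.25, edgeR adjusted p = 0.02329) higher. These were 2 of the 10 genes, the pair that shares much of its sequence, where 1.3% of all genes were called higher and 1.42% in either direction. Hspa8, with a log2 fold change of 0.23 (SE 0.07, edgeR adjusted p = 0.1402), and Dnajb1, with 0.14 (SE 0.04, edgeR adjusted p = 0.1482), had an unadjusted p below 0.05 and were not called by edgeR. Of all genes 14.2% had an unadjusted p below 0.05. DESeq2 called Hspa8 as the third chaperone (log2 fold change 0.22, DESeq2 adjusted p = 0.04011), among 651 calls in 16375 genes. In edgeR the adjusted p of Hspa8 was 0.06644 to 0.3126 without 1 library. Hspa1a lost its call when any 1 of Cre female 3, GFP female 1 or 2 or GFP male 1, 2 or 3 was left out, with an edgeR adjusted p of up to 0.08416, and both genes lost it with the cortical score as a covariate. Between the sexes of floxed mice, averaged over GFP and Cre, 0 of 10 genes were called, with 0.0682% of all genes called. The 2 of smallest p were Hspa1b, with a female minus male log2 difference of -0.47 (SE 0.24, edgeR adjusted p = 0.8089), and Hspa1a, with 0.32 (SE 0.25, edgeR adjusted p = 0.9193), which was 0.13 without GFP female 3 and 0.52 without Cre male 2.

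**Figure D3:**
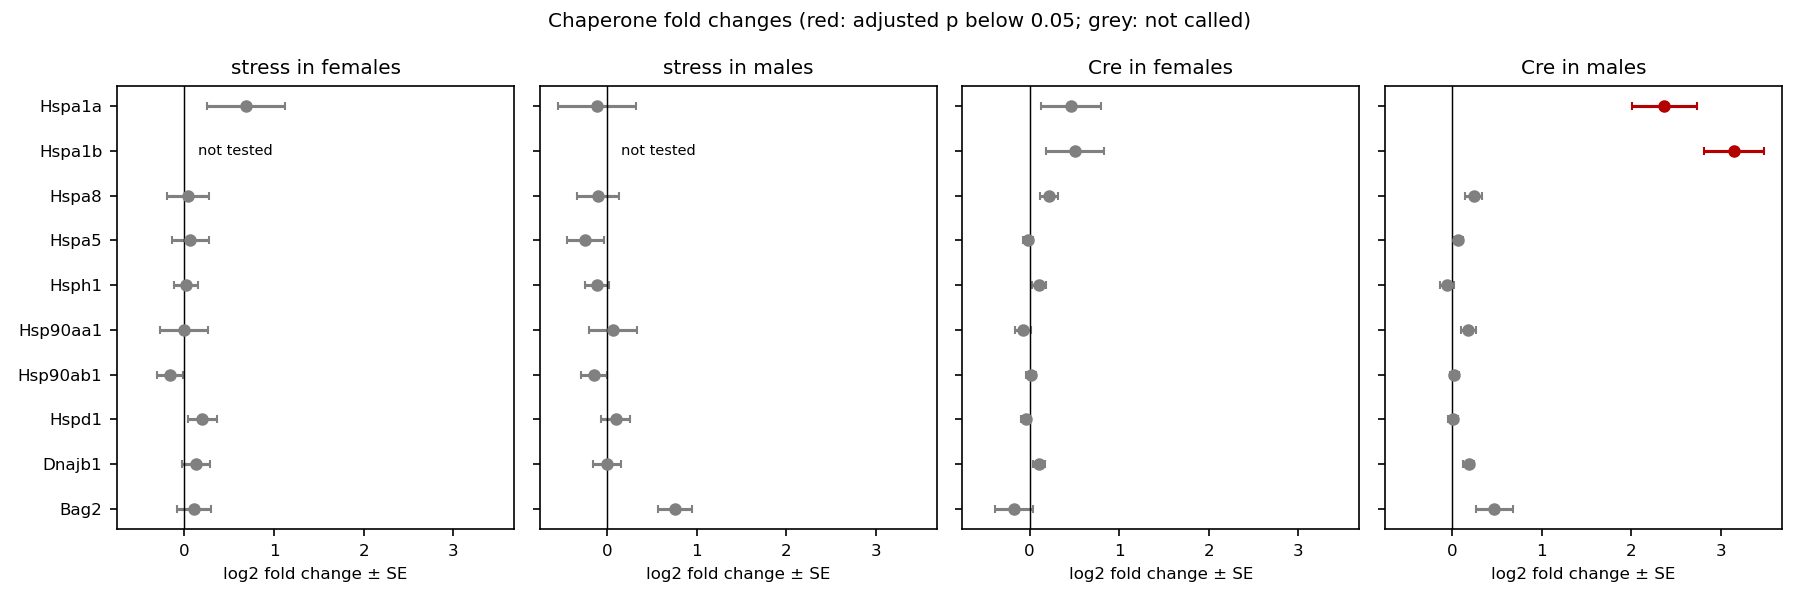
Log2 fold changes with their SE (horizontal axes) of the 10 chaperone genes for stress in wild-type females and males and for Cre in floxed females and males; red marks an adjusted p below 0.05. Red is seen in Cre males alone, at 2.37 for Hspa1a and 3.15 for Hspa1b, and Hspa1b was not tested in the wild-type experiment.

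The wild-type experiment asks how stress changed expression in each sex, measured at an unstated time after the last stressor. None of the 9 tested chaperones was called in either sex. Of the inducible HSP70 genes this covers Hspa1a, since Hspa1b was not tested. In females edgeR called 0 of 9, and 0% of all 15249 genes, while 1.68% had an unadjusted p below 0.05, none of them a chaperone of the 9, and DESeq2 called 2 genes. Hspa1a was at 1.35, 1.15 and 0.974 CPM in stressed females (10, 11 and 7 counts) and 0.912, 0.514 and 0.710 CPM in control females (9, 5 and 7 counts). Hspa1a passed the filter on low counts only through stressed libraries. These were stressed female 1 (10 counts), stressed female 2 (11) and stressed male 1 (11). Its place among the 9 tested genes is therefore not independent of this comparison. The stressed and control females did not overlap in CPM, as for 1 of the 9 chaperones and 2.72% of all genes. The log2 fold change of 0.69 (SE 0.44) was not called (edgeR adjusted p = 0.9999). Summed with Hspa1b the log2 fold change fell to 0.26 (SE 0.41). Hspd1, with a log2 fold change of 0.20 (SE 0.16), overlapped, at 76.2 to 94.3 CPM in stressed and 66.4 to 86.4 CPM in control females, and ran from 0.11 without stressed female 3 to 0.34 without control female 3. Of 10 cortical excitatory neuron markers 2 had a positive log2 fold change in stressed females (median -1.13), and 0 were called. Their sums overlapped, at 276 to 288 CPM in stressed and 262 to 380 CPM in control females. The part of tissue makeup in the chaperone values was not tested beyond the covariate fits.

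In males edgeR called 0 of 9, and 0.00656% of all genes. Bag2 was the chaperone with the most distinct values: 4.71, 5.10 and 5.83 CPM in stressed males (48, 47 and 54 counts) against 3.44, 2.71 and 3.06 CPM in control males (33, 25 and 36 counts). The groups did not overlap, as for 1 of the 9 chaperones and 3.67% of all genes in this direction, and the log2 fold change was 0.76 (SE 0.19). Its p of 0.001364 was the 13th smallest of the 15249 genes, and the edgeR adjusted p was 0.9999. In females Bag2 was at 4.198, 4.90 and 4.45 CPM with stress and 4.36, 4.12 and 4.16 CPM in controls, so the control males were the group that lay below the other 3. The female minus male difference of the stress effect was -0.65 (SE 0.26) for Bag2 and 0.80 (SE 0.62) for Hspa1a, neither called (edgeR adjusted p = 1), and 0% of all genes were called. The Hspa1a difference was 0.45 without stressed male 3, and for the summed pair it was -0.05 (SE 0.57). Choroid plexus and ependyma markers summed to 53.9 to 2733 CPM in control males and 94.3 to 209 CPM in stressed males, and their part in these values was not tested beyond the covariate fits, in which 0 of the 9 genes were called.

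Hspa1b, not tested here, was at 0.294, 2.28 and 0.540 CPM in stressed males and 0.835, 0.326 and 0.681 CPM in control males. Stressed male 2, with 21 counts, was the highest of the 12 wild-type libraries for Hspa1b, and it was also the highest for Hsph1 (513 CPM), Hspd1 (103 CPM) and Hsp90aa1 (472 CPM). Hspa5 in males was at 242, 321 and 216 CPM with stress and 242, 272 and 406 CPM in controls. Its log2 fold change was -0.24 (SE 0.21), was not called (edgeR adjusted p = 0.9999) and rested on control male 3, without which it was 0.03. Choroid plexus and ependyma markers summed to 2733 CPM in control male 3, the highest of the 12 wild-type libraries. Their part in the Hspa5 value was not tested beyond the covariate fits.

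Averaged over the sexes, 0 of 9 chaperones were called for stress, with 0.0131% of all genes called. The 2 of smallest p were Bag2, with a log2 fold change of 0.43 (SE 0.13), and Hsp90ab1, with -0.15 (SE 0.10), both with an edgeR adjusted p of 0.9997. The Hsp90ab1 value was -0.05 without control female 1 and -0.09 without control male 3. Between wild-type females and males, averaged over control and stress, 0 of 9 were called, with 0.0393% of all genes called. The 2 of smallest p were Hspa5, with a log2 difference of -0.18 (SE 0.15), and Hsp90ab1, with 0.10 (SE 0.10), both with an edgeR adjusted p of 1. The Hspa5 difference was -0.06 without control male 3, and that of Hsp90ab1 was 0.0051 without control female 1. The median log2 fold change for stress over the 9 chaperones was 0.06 in females and -0.10 in males, and over all genes -0.0058 and -0.0011.

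Hspa8 and Hsp90aa1 varied with the library number and not with stress in the wild-type mice, a pattern singled out after the values were seen. Hspa8 was at 577, 585, 562 and 540.5 CPM in the 4 libraries numbered 1 and at 344 to 448 CPM in the other 8. Hsp90aa1 was at 214, 269.7, 215 and 274 CPM in the libraries numbered 1 and at 306 to 472 CPM in the others. The libraries numbered 1 therefore lay apart for both genes, in opposite directions, in control and stressed animals of both sexes. Blood markers summed to 67.3, 64.7, 69.9 and 73.6 CPM in these 4 libraries and to 18.7 to 38.3 CPM in the other 8. Ribosomal protein genes, kept as a sign of RNA quality, summed to 6968, 8330, 8191 and 8846 CPM in the 4, each the highest of its group. The part of blood or RNA quality in this pattern was not tested.

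The ratio of Hspa8 to Hsp90aa1 was 1.98 to 2.69 in the wild-type libraries numbered 1, 0.912 to 1.34 in the other 8, and 0.967 to 1.32 in the 12 floxed libraries. Hsph1 was also the lowest of its group in the library numbered 1 in 4 of 4 groups. Many genes shared this order, since 14.1% of the 15249 tested genes were highest and 14.2% lowest in the library numbered 1 of all 4 wild-type groups, against 0.796% and 0.875% in the floxed experiment. The deviations of wild-type libraries numbered 1 from their group means correlated across genes with a median r of 0.495 over 6 pairs of libraries. Without these 4 libraries 0 of the chaperones were called in the wild-type contrasts, the Bag2 stress effect in males was 0.92 (SE 0.26, edgeR adjusted p = 0.5371), and the sex difference of Hsp90ab1 turned to -0.02.

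**Figure D4:**
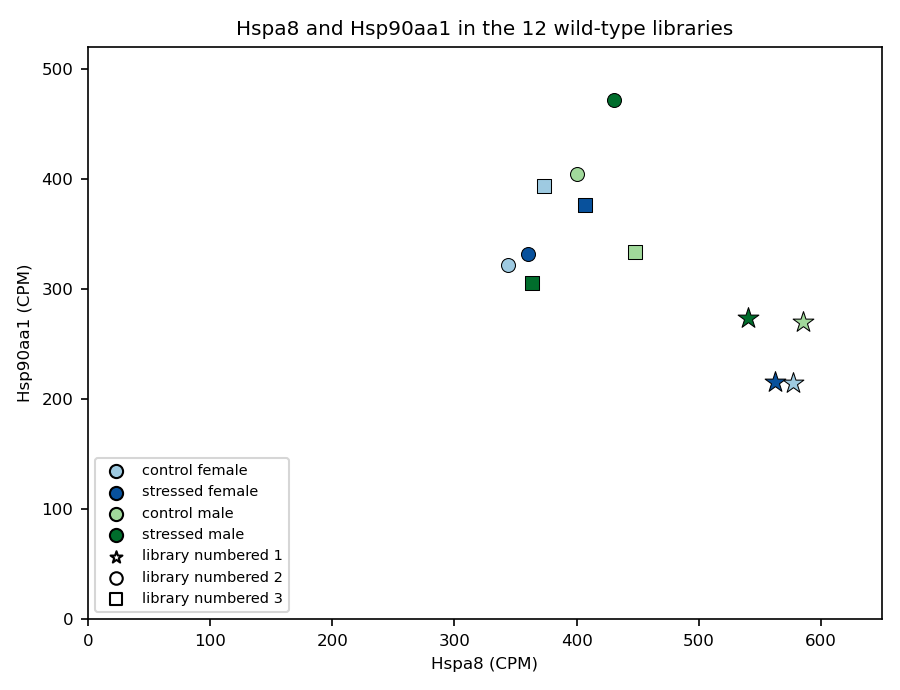
Hsp90aa1 against Hspa8 expression, both in CPM on axes from 0, in the 12 wild-type libraries; colour gives the group and shape the library number. The 4 libraries numbered 1 (stars) lie at 540.5 to 585 CPM of Hspa8 and 214 to 274 CPM of Hsp90aa1, apart from the other 8.

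How the chaperones varied together is given as a description, since these correlations of log2 CPM over 12 libraries share depth, groups and tissue. In the floxed libraries Hspa1a and Hspa1b varied together (r = 0.90, and 0.79 after the group means were removed), and in the wild-type libraries, at 3 to 21 counts, r was -0.21. Hspa5, Hsph1 and Hspd1, which serve different compartments, had r of 0.73 to 0.87 with each other in the wild-type libraries and of -0.37 to 0.51 in the floxed libraries. Hsp90aa1 had r of 0.67, 0.77 and 0.67 with Hspa5, Hsph1 and Hspd1 in the wild-type libraries, and of 0.35, -0.62 and 0.54 in the floxed libraries. The wild-type library numbered 1 was the lowest of its group in 3 of 4 groups for Hspa5, 4 of 4 for Hsph1, 2 of 4 for Hspd1 and 4 of 4 for Hsp90aa1. The part of the library number in these correlations was not tested. Hspa8 against Hsp90aa1, the pair for which the wild-type libraries numbered 1 lay apart, gave -0.68 in wild-type and 0.54 in floxed libraries.

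A mean score of 4 heat-inducible genes, Hspa1a, Hspa1b, Dnajb1 and Hsph1, was compared with each of 14903 genes in both experiments. The 4 genes did not share 1 pattern. In the floxed libraries Hsph1 had r of -0.30, -0.34 and -0.24 with Hspa1a, Hspa1b and Dnajb1, and in the wild-type libraries Hspa1a had r of -0.21, -0.37 and -0.02 with Hspa1b, Dnajb1 and Hsph1. Likeness to the score is therefore likeness to an average, which in wild-type mice includes the low counts of Hspa1b. The 5 genes whose pattern was most like it, ranked by the smaller of the Pearson r over 12 wild-type and over 12 floxed libraries, were Emc6 (0.74 and 0.83), Lix1 (0.69 and 0.68), D1Ertd622e (0.67 and 0.75), Txndc15 (0.66 and 0.77) and Dync1li1 (0.65 and 0.83). Their Spearman rho was 0.50 to 0.70 in wild-type and 0.69 to 0.86 in floxed libraries. Emc6 is a subunit of a membrane protein insertion complex of the endoplasmic reticulum, and Dync1li1 a light intermediate chain of the dynein motor.

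The rest of the chaperone network held 1 call within a sex. Of 42 other cytosolic chaperones and cochaperones 41 were tested, and in Cre males 1 was called higher and 0 lower, a share below the 3.68% of all genes called higher and 4.96% in either direction, so the count sets the list apart in neither way. That gene was Stub1, the ubiquitin ligase that tags HSP70 clients and is held back by Bag2, at 24.5 ± 1.83 CPM with Cre and 18.7 ± 1.17 CPM with GFP (SD, n = 3). Its log2 fold change was 0.39 (SE 0.10, edgeR adjusted p = 0.04877), it was 0.34 (SE 0.10, edgeR adjusted p = 0.6301) in females, and averaged over the sexes it was called at 0.37 (SE 0.07, edgeR adjusted p = 0.03173). Like every other gene it was not called in Cre males with the cortical score as a covariate. The next were Hspa13 at -0.23 (edgeR adjusted p = 0.05357) and Ppp5c, a phosphatase that binds HSP90, at 0.23 (edgeR adjusted p = 0.05956). The list's median log2 fold change was 0.03 in Cre males.

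Small heat shock proteins, which hold unfolded proteins without ATP, had 6 of 8 genes tested in the floxed experiment and 0 called, which says little beside 4.96% of all genes in Cre males and 0% in Cre females. In Cre males Cryab, the alpha B crystallin that is abundant in glia, had a log2 fold change of 0.90 (SE 0.23, edgeR adjusted p = 0.05559), at 32.9 to 58.6 CPM against 20.5 to 25.4 CPM. Hspb8, a partner of the cochaperone Bag3, had 0.72 (SE 0.23, edgeR adjusted p = 0.08994), at 5.60 to 10.9 CPM against 4.36 to 5.51 CPM. The Cre and GFP males did not overlap for either gene, as for 14.7% of all genes in this direction. Hspb11, whose role as a chaperone of this kind was not examined, went the other way, at -0.26 (SE 0.09, edgeR adjusted p = 0.1125). The median of the 6 genes, with Hspb11 among them, was 0.40. Markers of glia also leaned higher in Cre males, where 50.9% of all genes were positive. Positive were 8 of 8 oligodendrocyte (median 0.23), 6 of 6 astrocyte (0.14) and 7 of 7 microglia markers (0.18), with 0 called. The part of glial content in the Cryab value was not tested.

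Of 31 genes of the endoplasmic reticulum chaperones and unfolded protein response, 30 were tested in wild-type and 31 in floxed mice, and 0 were called for Cre or for stress in either sex. Of all genes 4.96% were called in Cre males, 0.00656% in stressed males and 0% in both female contrasts, so a count of 0 in this list, or in the shorter ones that follow, does not set it apart. The smallest p in Cre males belonged to Atf4, a transcription factor of the integrated stress response, with a log2 fold change of 0.22 (SE 0.07, edgeR adjusted p = 0.07116). The list's median was 0.02 in Cre males, 0.02 in stressed females and -0.02 in stressed males. The 10 mitochondrial chaperones had 0 calls in these 4 contrasts, with Hspe1, the partner of Hspd1, at 0.44 (SE 0.20, edgeR adjusted p = 0.9999) in stressed males. Of 4 heat shock factor genes (Hsf1, Hsf2, Hsf4 and Hsf5) and Hsbp1, whose protein binds heat shock factor 1, 0 were called in these contrasts. Hsf1 had a log2 fold change of -0.18 in both sexes under stress, and Hsf4 of 0.55 (SE 0.23, edgeR adjusted p = 0.1664) in Cre males.

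The 8 subunits of CCT, the cytosolic chaperonin that folds actin and tubulin, had 0 calls. Under stress 8 of 8 had a positive log2 fold change in females (median 0.16) and 8 of 8 in males (median 0.11), where 48.7% and 49.7% of all genes were positive. Other lists leaned the same way: 59 of 76 ribosomal protein genes in females (median 0.15) and 73 of 76 in males (median 0.22), and 9 of 10 mitochondrial chaperones in each sex (medians 0.06 and 0.12). Of the medium spiny neuron markers 1 of 10 was positive in each sex (medians -0.16 and -0.15). The ribosomal protein list was kept as a sign of RNA quality, and the part of RNA quality or tissue makeup in these shifts was not tested. The subunits share 1 complex and the same libraries, so they are not independent. With Cre their median was -0.0034 in females and -0.0071 in males.

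**Figure D5:**
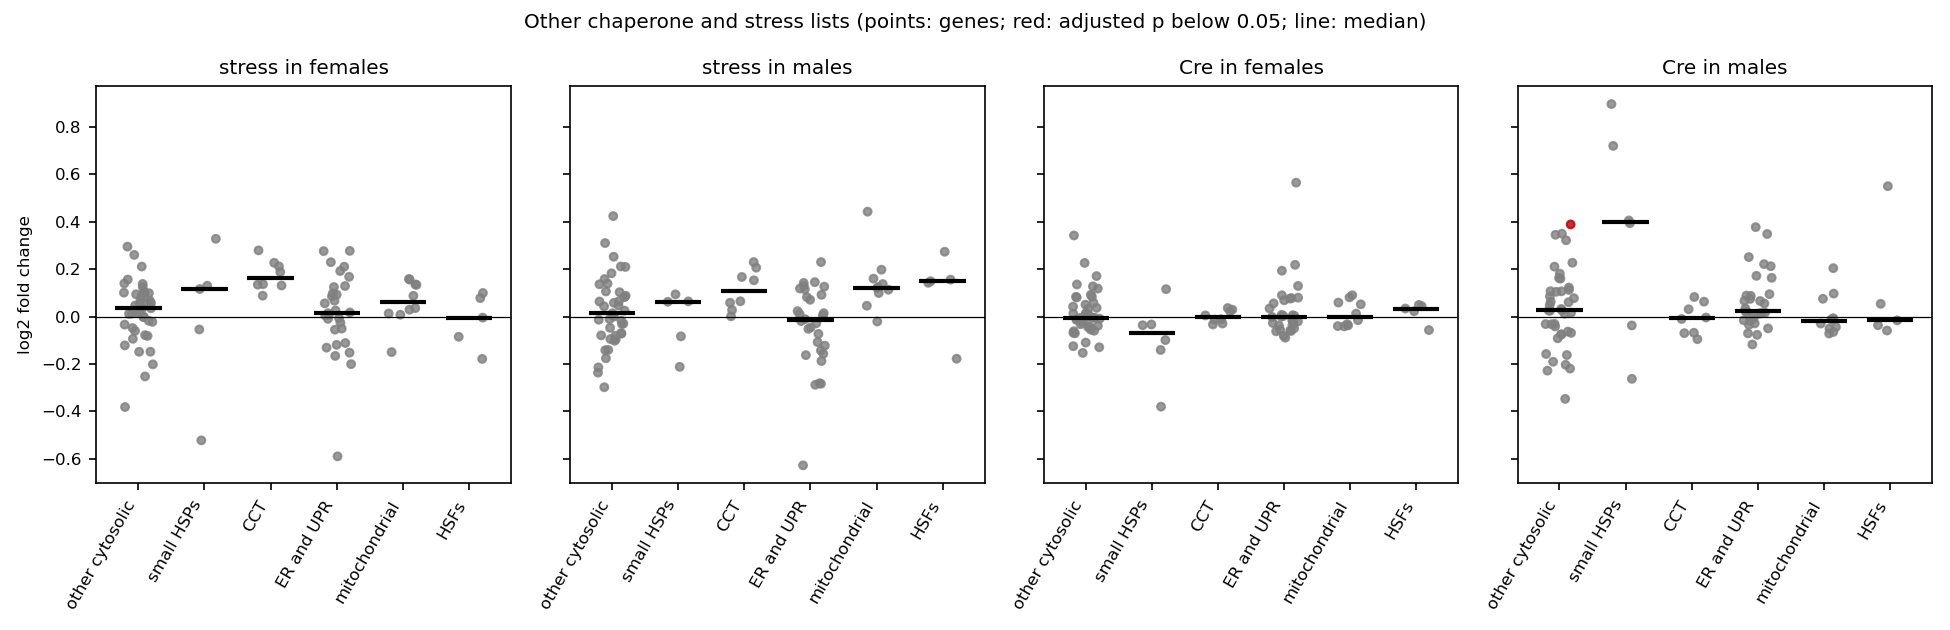
Log2 fold changes (vertical axis) of the genes of 6 other chaperone and stress lists for stress and Cre in each sex; points are genes, bars are list medians, and red marks an adjusted p below 0.05. Stub1 in Cre males, at 0.39, is the only red point, and the small heat shock proteins have the highest median there, at 0.40.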

How the data were processed

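RNA of nucleus accumbens was sequenced in 24 libraries, 8 groups of 3, each from 4 mice. Per the submitters' processing notes, the authors used Bowtie2 2.1.0, TopHat2 2.0.9 and HTSeq 0.6.0 with builds NCBIM37 and mm9. The authors deposited unscaled whole-number counts, 1 row per Ensembl ID. Symbols and exon lengths came from GENCODE M21 (GRCm38), matched by Ensembl ID for 32919 of 37991 IDs, and promoters from RefSeq.

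The fits used edgeR 4.0.16 in R 4.3.3 (filterByExpr, TMM factors, robust quasi-likelihood F test), with DESeq2 1.42.0 as an alternative, in 1 fit per experiment with a mean for each of 4 groups, after the fit was tested on simulated data. Adjustment was by Benjamini and Hochberg across every tested gene, and calls needed an adjusted p below 0.05. Contrasts were stress or Cre in each sex, their mean and difference over the sexes, and sex. Levels are TMM-scaled CPM.

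The genes and lists were chosen with earlier results of these data known. A chaperone's fold change is named if it was called, had an unadjusted p below 0.05 or, within a sex, its groups did not overlap. If fewer than 2 met this, the 2 of smallest p are named. Of other lists, up to 3 genes of smallest p per contrast were eligible. Alternatives were DESeq2, RLE scaling, no filter, a replicate block, fits of 2 groups, marker scores as covariates, the summed Hspa1 pair and leaving out libraries. Same-numbered libraries deviated together in wild-type females (r of 0.592, 0.334 and 0.524) and not throughout in males (0.341, 0.247 and 0.0859). No pair of libraries was identical. P-values set group differences against the spread between these libraries. Each library is a pool of mice, so variation between single mice was not measured.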

Additional observations from a re-analysis of the deposited data

How the results depend on the processing

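The 2 calls in Cre males held without any 1 library (Hspa1b adjusted p 9.811e-05 to 0.03078, Hspa1a 0.002624 to 0.04904) and under DESeq2, RLE scaling, no filter, the block and the fit of 2 groups. They became 0 with the cortical score as a covariate (Hspa1b 2.41, Hspa1a 1.62, adjusted p 1) and 1 with the choroid plexus score (Hspa1a 1.71, adjusted p 0.07033). Averaged over the sexes, 2 calls became 1 with the replicate block (Hspa1a adjusted p 0.05763), 0 with the cortical score, 1 to 2 without 1 library, and 3 with DESeq2, which added Hspa8 (adjusted p 0.04011). For the female minus male difference, 0 became 1 with DESeq2, 1 with no filter and 0 to 2 without 1 library. Over all genes this difference was called for 43 with no filter and for 0 to 500 without 1 library. Counts of called chaperones in the other contrasts stayed at 0. Signs turned for Hspa5 (stress in males, -0.42 to 0.028 without 1 library, the latter without control male 3), Hspa1a (stress difference between the sexes, -0.047, and sex in floxed mice, -0.12, both summed with Hspa1b), Hsp90ab1 (sex in wild-type mice, -0.018 without the libraries numbered 1, chosen after seeing the data) and Bag2 (Cre in males, -0.16, and its difference, 0.015, both with the cortical score). The causes were not tested. Over all genes, DESeq2 against edgeR called 1754 against 872 in Cre males, 651 against 249 averaged and 613 against 2 for the difference. Without 1 library Cre in males ranged from 93 to 1303. With the replicate block, Cre in males fell to 191 and averaged to 34, and stress averaged over the sexes rose from 2 to 13. Cre in males fell to 0 with the cortical score and to 41 with the choroid plexus score. Floxed libraries of 1 number did not pair (r from -0.452 to 0.109). At 3 to 21 counts per library, small changes of Hspa1a and Hspa1b were not detectable in the wild-type experiment.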
